A study of Mus musculus with 9 samples.

Results

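The 8 genes described here, Thbd, Procr, F3, Tfpi, Plat, Plau, Plaur and Serpine2, encode proteins that start or restrain blood coagulation at the cell surface or generate plasmin. They were read from 11 probes carrying these gene names and are 8 of 21995 genes tested. They were chosen with their levels in the groups below already known, so their values and differences are a description and carry no p-value.

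Thrombomodulin, the product of Thbd, is a membrane protein that binds thrombin and turns it from a clotting enzyme into an activator of protein C, and Procr encodes the endothelial protein C receptor, which presents protein C to that complex. Tissue factor, the product of F3, is the membrane receptor of factor VII and sets off the extrinsic pathway, which tissue factor pathway inhibitor, encoded by Tfpi, shuts down. Plat and Plau encode the tissue-type and the urokinase-type plasminogen activator, Plaur encodes the receptor that holds urokinase on the cell surface, and Serpine2 encodes protease nexin-1, a serpin that inhibits thrombin and both activators. In muscle the plasminogen activators and the urokinase receptor are known for their part in myoblast migration and in repair after injury.

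The cells were C2C12, an immortal mouse myoblast line that can form myotubes and that represents a single clone. One group received vehicle, another 1 nM and the third 10 nM vitamin D (calcitriol, the hormonal form that binds the vitamin D receptor) for 72 h, each with 3 biological replicates per the series' design text. The series title refers to myotubes, while no source used here says when during differentiation the hormone was added. Total RNA of each of the 9 samples was labelled with 1 colour and hybridised to its own array. In such bulk RNA, fewer cells of a type and less RNA per cell cannot be told apart. A level below is log2 of the processed signal minus the array's 75th percentile, so that 0 is that percentile's brightness. Levels of different probes are not set against each other, and the number of arrays limits the precision.

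No spot was saturated, and the 75th percentiles lay between 2826 and 3389 intensity units. The array of vehicle replicate 3 stood apart, with 96.4% of spots well above background against 67.1% to 79.2% on the other 8, and with 6124 spots marked non-uniform against 8 to 56. Its median level was -2.14 against -3.88 to -3.50, and results that lean on it are given with and without it. All 9 muscle markers on the array were well above background on every array. Their summed scaled signal was 366 to 390 in vehicle, 422 to 467 at 1 nM and 454 to 471 at 10 nM. That sum weighs the brightest genes most, and not all 9 went up. Myog differed from vehicle by -0.13 and -0.43 (log2, SE 0.07), while the other markers had positive differences on their brightest probes. The hormone response was present by dose. Cyp24a1, the enzyme that breaks calcitriol down, had a level of -5.19 ± 0.47 in vehicle, -3.90 ± 0.15 at 1 nM and 0.94 ± 0.02 at 10 nM (SD, n = 3). The receptor gene Vdr had 2.03 ± 0.07, 2.12 ± 0.06 and 3.64 ± 0.05 (SD, n = 3).

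The probes are 60-base sequences placed on mouse build mm9 by the files. That of Thbd lies on the minus strand at chr2:148230235-148230294, that of Procr on the plus strand at chr2:155580945-155581004, and those of Plau and Plaur on the plus strand at chr14:21662242-21662301 and chr7:25260569-25260628. F3 has a probe at chr3:121437717-121437776 on the plus strand, and Tfpi has probes on the minus strand at chr2:84273059-84273118 and chr2:84281022-84281081. Exon, intron and UTR annotation around these positions was not used here. The 4 sequences below are those whose design matters for the results. The probes of F3 and Serpine2 cover 738 and 2618 genomic positions with 60 bases, so each crosses a splice junction and reads joined transcript. The Tfpi probe is 1 of the pair of Tfpi probes on which treated and vehicle arrays do not overlap, and the Plat probe is the sole reading of that gene.

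F3, probe A_65_P08971, chr3:121434609-121435346, plus strand: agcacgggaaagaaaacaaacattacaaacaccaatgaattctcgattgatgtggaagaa
Serpine2, probe A_51_P268094, chr1:79793476-79796093, minus strand: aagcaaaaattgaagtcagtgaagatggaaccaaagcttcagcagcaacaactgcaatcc
Tfpi, probe A_55_P2095360, chr2:84284179-84284238, minus strand: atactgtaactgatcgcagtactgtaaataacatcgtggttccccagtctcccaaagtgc
Plat, probe A_52_P409833, chr8:23892531-23892590, plus strand: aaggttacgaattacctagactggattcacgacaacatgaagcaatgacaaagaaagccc

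RefSeq promoter sequences of assembly GRCm38.p6, 250 bases before to 50 after a start site, were matched by symbol for 5 of the 8 genes, namely F3, Procr, Tfpi, Plaur and Serpine2. The AP-1 motif TGANTCA, which reads the same on both strands and is bound by Fos and Jun proteins, was searched because F3, Procr and Plaur were all lower in treated cells. It stood in the promoters of those 3 genes, and neither in the Serpine2 promoter nor in either of the pair given for Tfpi. Of 32851 promoters of 27025 genes, 7.81% hold it. Plat and Plau, also lower in treated cells, had no matched promoter to search. The motif was chosen with these levels known, so its matches are no evidence, and a part of AP-1 in them was not tested. Both F3 matches and the Plaur match are in capitals below.

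F3 promoter, GRCm38.p6 chr3:121723287-121723586, plus strand: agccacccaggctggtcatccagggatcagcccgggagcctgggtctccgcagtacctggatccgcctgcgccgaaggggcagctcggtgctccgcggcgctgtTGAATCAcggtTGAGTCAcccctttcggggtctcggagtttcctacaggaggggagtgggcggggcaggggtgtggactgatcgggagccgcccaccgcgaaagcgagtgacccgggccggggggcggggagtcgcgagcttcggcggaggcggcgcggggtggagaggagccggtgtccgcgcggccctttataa
Plaur promoter, GRCm38.p6 chr7:24462233-24462532, plus strand: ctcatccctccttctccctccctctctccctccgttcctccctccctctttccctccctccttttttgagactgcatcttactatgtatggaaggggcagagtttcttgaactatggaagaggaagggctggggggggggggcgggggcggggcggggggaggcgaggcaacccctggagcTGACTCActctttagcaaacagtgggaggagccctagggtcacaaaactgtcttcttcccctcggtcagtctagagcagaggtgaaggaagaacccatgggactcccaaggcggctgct

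The first bases of the F3 matches, TGAATCA and TGAGTCA, lie at -146 and -135 relative to the start site, that of the Plaur match TGACTCA at -69, and that of the Procr match, also TGACTCA, at -154. The Sp1 motif GGGCGG, searched on both strands, matched 3 times in F3, 3 times in Plaur, 6 times in Serpine2, 1 time in each Tfpi promoter and 0 times in Procr, and it stands in 35.7% of all promoters. The DR3 element, a direct repeat bound by the vitamin D receptor with RXR, had 0 matches in the 6 promoters and stands in 0.0396% of all promoters. A match is a description of letters, and these windows say nothing of sites farther away.

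Of the 8 genes, Thbd was the one with the steep upward difference, and it was higher at both doses. In vehicle its levels were -2.40, -2.49 and -2.55, at 1 nM they were 0.43, 0.32 and 0.27, and at 10 nM 1.77, 1.73 and 1.84. The groups were far apart, with no overlap between any pair. Thbd was 7.07-fold higher at 1 nM than in vehicle (log2 difference 2.82, SE 0.07) and 19.2-fold higher at 10 nM (4.26, SE 0.07), and 10 nM was 2.71-fold above 1 nM (1.44, SE 0.07). Without vehicle replicate 3 the differences from vehicle were 2.79 and 4.23. Within slide 1 they were 2.88 and 4.21, and within slide 2 they were 2.85 and 4.28. Set beside the hormone check, the log2 differences of Cyp24a1 were 1.29 (SE 0.22) at 1 nM and 6.13 (SE 0.22) at 10 nM.

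Procr, the partner of thrombomodulin in the protein C pathway, was lower in treated cells at both doses. Its vehicle levels were -2.67, -2.70 and -2.11, its 1 nM levels -3.57, -3.52 and -3.64, and its 10 nM levels -4.22, -3.42 and -3.34. All treated arrays lay below all vehicle arrays, while the treated groups overlapped. The level was 2.12-fold lower at 1 nM (log2 difference -1.08, SE 0.25) and 2.25-fold lower at 10 nM (-1.17, SE 0.25), and the doses differed by -0.09 (SE 0.25). The highest vehicle level is that of replicate 3, and without it the differences were -0.89 and -0.98. Within slide 1 they were -0.89 and -1.54, and within slide 2, where replicate 3 is the vehicle array, -1.46 and -1.31. Normexp background correction with quantile normalization gave -0.48 and -0.47. The submitters' own normalized values gave -0.46 and -0.44, and scaling to the array median gave -0.59 and -0.64.

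F3 was lower at 1 nM and lower again at 10 nM. On the brighter of its probes, A_55_P1971889, the vehicle levels were 0.17, 0.34 and 0.25, the 1 nM levels -1.07, -0.83 and -0.93, and the 10 nM levels -1.99, -1.82 and -1.86. These 3 groups form separate steps without overlap. F3 was 2.29-fold lower at 1 nM (log2 difference -1.20, SE 0.09) and 4.41-fold lower at 10 nM (-2.14, SE 0.09), with 1.93-fold between the doses (-0.95, SE 0.09). Scaling to the array median gave -0.71 at 1 nM and -1.61 at 10 nM. Within slide 1 the differences from vehicle were -1.32 and -2.25, and within slide 2 they were -1.13 and -2.07. The junction probe printed above gave the same order, with -3.62, -2.99 and -0.66 in vehicle, -4.70, -4.85 and -4.83 at 1 nM and -5.74, -5.67 and -5.60 at 10 nM. Its vehicle arrays spread widely because replicate 3 read far above the others. Its differences from vehicle were -2.37 and -3.25 (SE 0.66), and -1.49 and -2.36 (SE 0.17) without that array.

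Tfpi, the inhibitor of the tissue factor pathway, differed little. Its brightest probe, A_66_P132295, read 1.43, 0.87 and 1.24 in vehicle, 1.47, 1.62 and 1.47 at 1 nM and 1.41, 1.27 and 1.48 at 10 nM. The 1 nM arrays lay above all vehicle arrays by a small margin, and the 10 nM arrays overlapped with vehicle. The log2 differences on this probe were 0.34 (SE 0.14) at 1 nM, 0.21 (SE 0.14) at 10 nM and -0.13 (SE 0.14) between the doses. The other probes gave like sizes with a smaller spread, 0.35 and 0.20 (SE 0.07) on A_52_P670263 and 0.40 and 0.27 (SE 0.08) on A_55_P2095360. On both of these every treated array lay above every vehicle array, at -0.60 to -0.35 against -0.79 to -0.65 on A_52_P670263 and at -0.66 to -0.42 against -1.01 to -0.77 on A_55_P2095360. Within slide 1 the brightest probe gave 0.32 and 0.26, and within slide 2 it gave 0.31 and 0.04. Scaling to the array median gave 0.83 at 1 nM and 0.74 at 10 nM, where the median of all genes was 0.38 and 0.4.

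**Figure D1:**
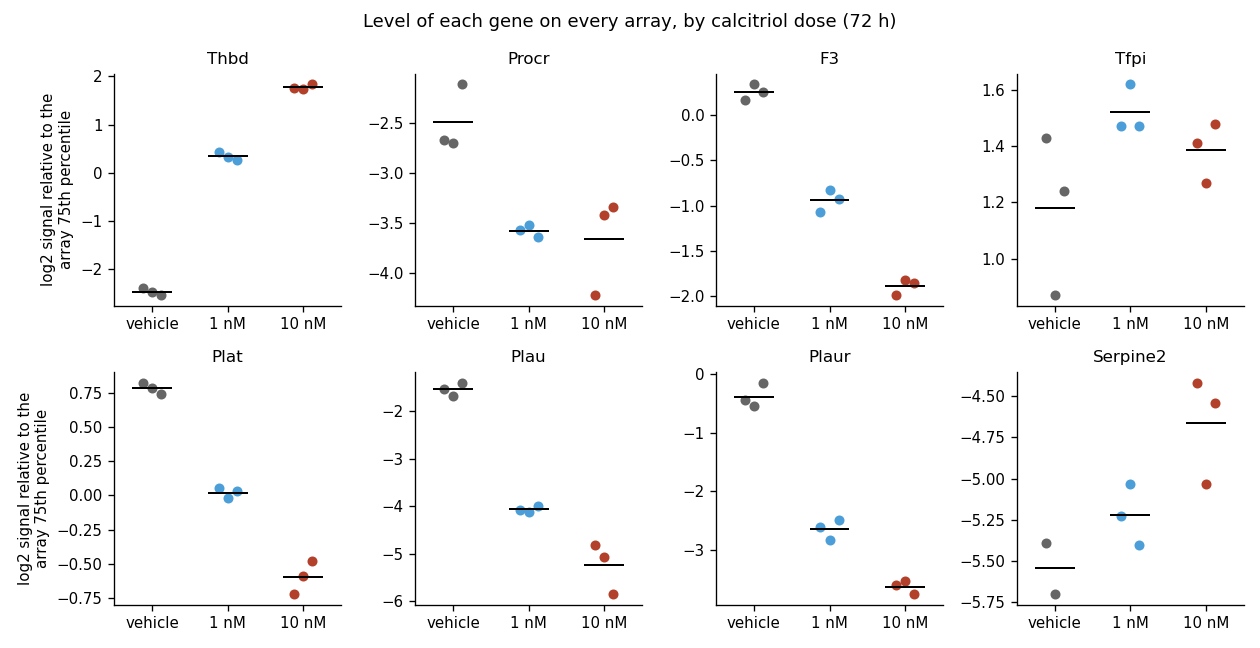
Level of each of the 8 genes on every array (points, log2 signal relative to the array's 75th percentile, each panel with its own axis) in vehicle, 1 nM and 10 nM calcitriol, with the group mean as a line. Thbd steps up from a mean of -2.48 to 0.34 and 1.78, F3, Plat, Plau and Plaur step down, and Procr and Tfpi differ by -0.09 and -0.13 between the doses. Serpine2 has 2 vehicle values.

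**Figure D2:**
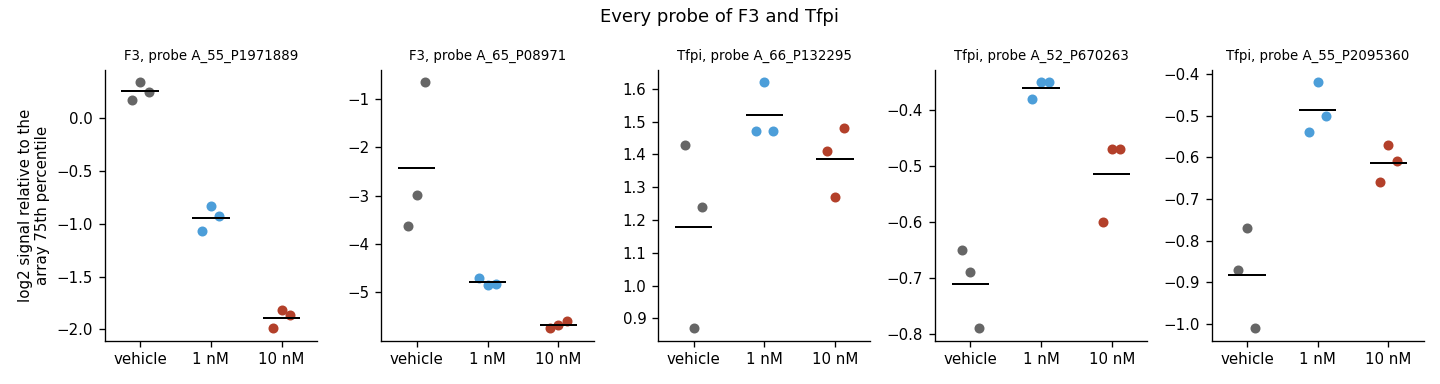
Level on every array for each probe of F3 and Tfpi, with group means as lines and log2 signal relative to the array's 75th percentile on each panel's own vertical axis. On the F3 junction probe A_65_P08971 vehicle replicate 3 reads -0.66 against -3.62 and -2.99 for the other vehicle arrays.

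Both plasminogen activators and the urokinase receptor were lower in treated cells, by dose. Plat, the tissue-type activator, had levels of 0.82, 0.78 and 0.74 in vehicle, 0.05, -0.02 and 0.03 at 1 nM and -0.72, -0.59 and -0.48 at 10 nM, in 3 separate bands. It was 1.69-fold lower at 1 nM (log2 difference -0.76, SE 0.08) and 2.60-fold lower at 10 nM (-1.38, SE 0.08), and 1.53-fold lower at 10 nM than at 1 nM (-0.62, SE 0.08). The differences from vehicle were -0.75 and -1.52 within slide 1 and -0.74 and -1.33 within slide 2. With arrays scaled to their median in place of the 75th percentile the difference at 1 nM shrank to -0.27.

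Plau, which encodes urokinase, had the deepest downward difference of the 8 genes as scaled here. In the submitters' own normalized values Plaur was deeper. Plau levels were -1.54, -1.69 and -1.41 in vehicle, -4.08, -4.13 and -3.99 at 1 nM and -4.82, -5.07 and -5.85 at 10 nM. The groups did not overlap, and the 10 nM arrays were the most spread. Plau was 5.72-fold lower at 1 nM (log2 difference -2.52, SE 0.24), 13-fold lower at 10 nM (-3.70, SE 0.24) and 2.26-fold lower at 10 nM than at 1 nM (-1.18, SE 0.24). The 10 nM levels approach the dimmest probes well above background, which stood at -7.36 to -6.14 across the arrays. The differences from vehicle were -2.46 and -3.20 within slide 1 and -2.65 and -3.66 within slide 2, and -1.77 and -2.41 in the submitters' own normalized values. Between the doses those values gave -0.63.

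Plaur, the receptor of urokinase, followed with levels of -0.45, -0.55 and -0.15 in vehicle, -2.61, -2.84 and -2.49 at 1 nM and -3.60, -3.54 and -3.76 at 10 nM. Again the 3 groups were separate. Plaur was 4.80-fold lower at 1 nM (log2 difference -2.26, SE 0.13), 9.52-fold lower at 10 nM (-3.25, SE 0.13) and 1.98-fold lower between the doses (-0.99, SE 0.13). Within slide 1 the differences from vehicle were -2.11 and -3.10, and within slide 2 they were -2.52 and -3.39. The submitters' own normalized values gave -1.98 and -2.71, both deeper than those of Plau.

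Serpine2, the serpin of the set, was dim. It read -5.39 and -5.70 on the vehicle arrays with a usable spot, -5.23, -5.03 and -5.40 at 1 nM and -4.42, -5.03 and -4.54 at 10 nM. The spot on vehicle replicate 3 was marked non-uniform and left out, so vehicle has n = 2. The 1 nM range reached the vehicle range and the 10 nM range, while 10 nM lay above both usable vehicle arrays. The log2 differences were 0.33 (SE 0.21) at 1 nM, 0.89 (SE 0.21, 1.85-fold higher) at 10 nM and 0.56 (SE 0.19) between the doses. With the marked spot kept, at a level of -2.04, the differences became -0.84 and -0.28, so the direction of Serpine2 rests on leaving that spot out. The submitters' own normalized values gave -0.33 and 0.01. Within slide 1 the differences were 0.32 and 1.13, and slide 2 has no usable vehicle spot.

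**Figure D3:**
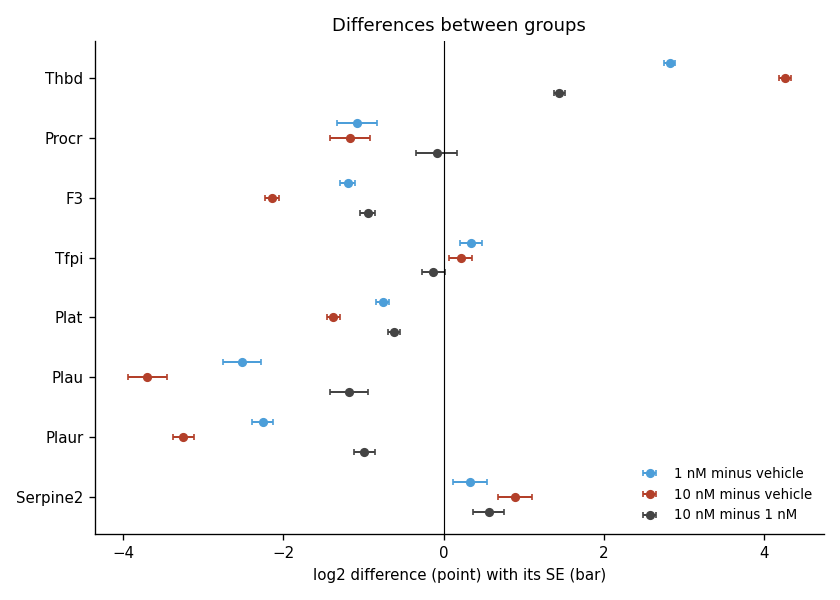
Log2 differences between groups (points) with the standard error of the fit over all arrays (bars) for the 8 genes, in the 3 comparisons by colour. Thbd lies at 2.82 and 4.26 against vehicle, Plau at -2.52 and -3.70, Plaur at -2.26 and -3.25, and the Tfpi differences lie between -0.13 and 0.34.

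Across all genes, limma with Benjamini-Hochberg adjustment at 0.05 called 11.8% higher and 11.8% lower at 1 nM, 15.4% higher and 14.7% lower at 10 nM, and 1.60% higher and 2.21% lower at 10 nM than at 1 nM. By the same threshold 1 of the 8 genes was higher and 5 lower at 1 nM, 2 higher and 5 lower at 10 nM, and 1 higher and 4 lower between the doses. Nothing is read from these counts or from the calls on these genes below, since the genes were chosen on these contrasts. The median log2 difference of the 8 was -0.92, -1.27 and -0.38 in the 3 comparisons, against -0.09, -0.11 and -0.01 over all genes. Vehicle and 1 nM arrays did not overlap for 7 of the 7 genes with a value on every array (42.4% of all genes), vehicle and 10 nM arrays for 6 of 7 (44.4%), and the doses for 5 of 8 (24.0%). The genes without a call were Tfpi and Serpine2 at 1 nM, Tfpi at 10 nM, and Procr, Tfpi and Serpine2 between the doses. The absent Tfpi calls are those of its brightest and most spread probe. Both other probes and the mean of its probes passed at 1 nM, and A_55_P2095360 passed at 10 nM. Median scaling left 3, 4 and 0 of the 8 called in the 3 comparisons (4 with an unadjusted p under 0.05 between the doses by limma). With normexp and quantile normalization and in the submitters' values the Thbd call between the doses ended, at a difference of 1.32 in each. The F3 call between the doses ended with the mean of its probes, at -0.91. Each slide alone left 0 between the doses (7 and 5 with an unadjusted p under 0.05), and the slide block ended the Plaur call there, at a difference of -0.90. Procr lost its call at both doses with normexp and quantile normalization, in the submitters' values and under median scaling. Leaving out single arrays ended 3 of the calls. Procr at 1 nM lost its call without any one 1 nM array, Serpine2 at 10 nM without vehicle replicate 2 or 10 nM replicate 1 or 3, and Plau between the doses without any of 6 arrays (vehicle replicates 1 and 2, each 1 nM replicate and 10 nM replicate 2). With the replicate number as a block the Plau call between the doses also ended, its difference staying at -1.18, and 459 genes in place of 837 were called in that comparison.

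**Figure D4:**
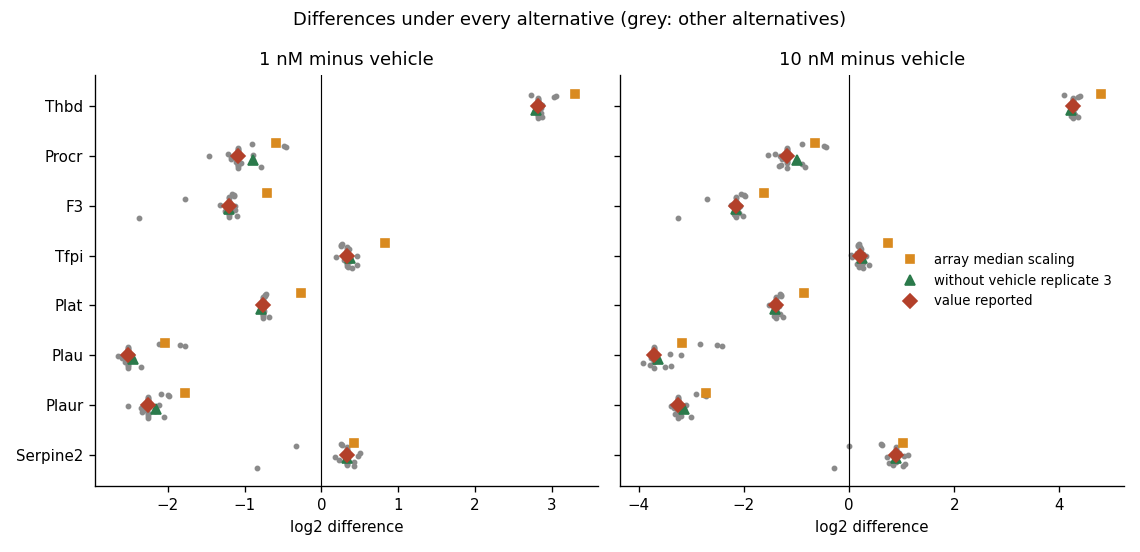
Log2 differences from vehicle at 1 nM (left) and 10 nM (right) for the 8 genes as reported (diamonds) and under every alternative (grey points), with scaling to the array median (squares) and the fit without vehicle replicate 3 (triangles) set apart. Thbd stays between 2.73 and 3.31 at 1 nM and between 4.08 and 4.79 at 10 nM, and Serpine2 falls to -0.84 and -0.28 when its non-uniform spot is kept.

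The genes around these 8 were taken from 4 lists of coagulation and plasminogen genes, 48 in all, of which 37 were measured. In those 37 genes, 4 rose and 13 fell at 1 nM, 5 rose and 15 fell at 10 nM, and 1 was higher and 3 lower at 10 nM than at 1 nM, with median log2 differences of -0.43, -0.46 and -0.08 beside -0.09, -0.11 and -0.01 over all genes. Of all genes, as above, 11.8% rose and 11.8% fell at 1 nM, 15.4% and 14.7% at 10 nM, and 1.60% and 2.21% were higher and lower between the doses. The downward medians of the 37 against vehicle did not hold under other processing. They were 0.02 and -0.04 with median scaling, -0.01 and -0.06 with normexp and quantile normalization, and -0.06 and -0.12 in the submitters' values. P-values below are limma's, adjusted over all genes tested. They weigh each difference against the spread between these samples, all of a single cell line. Scaling to the array median, which moves the median of all genes to 0.38 at 1 nM and 0.40 at 10 nM, left 6, 9 and 0 of the 37 called, against 1 with an unadjusted p under 0.05 between the doses. Under it Anxa2, S100a10 and Mrc2 passed the test at 10 nM. No other gene given a p-value against vehicle below did so at that dose. At 1 nM Anxa2 (-0.96, adjusted p = 0.102), S100a10 (-0.67, 0.242), Mrc2 (1.1, 0.0706) and Anxa5 (-0.72, 0.218) did not pass under median scaling. The genes counted as risen against vehicle include F13a1, Kng1 and Serpina5, and at 10 nM also Vtn. These entered the test through the treated groups, so no p-value is given for them.

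Among plasminogen, its inhibitors and its surface partners, 11 of 15 genes were measured, of which 1 rose and 5 fell at 1 nM and 2 rose and 5 fell at 10 nM. Anxa2 and S100a10 encode the partners of the annexin A2 heterotetramer, a surface receptor that brings plasminogen and tissue-type activator together, and both fell. Anxa2 was 2.72-fold lower at 1 nM (log2 difference -1.45, SE 0.09, adjusted p = 2.53e-05) and 3.53-fold lower at 10 nM (-1.82, adjusted p = 4.75e-06). S100a10 was 2.23-fold lower at 1 nM (-1.16, SE 0.08, adjusted p = 4.5e-05) and 3.37-fold lower at 10 nM (-1.75, adjusted p = 3.3e-06). Between the doses S100a10 was lower by -0.60 (adjusted p = 0.00818), a call lost without 1 nM replicate 2, and Anxa2 by -0.37 (adjusted p = 0.0827).

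Mrc2, a collagen uptake receptor that associates with the urokinase receptor, rose. Its log2 difference was 0.61 at 1 nM (SE 0.10, adjusted p = 0.00272), 1.30 at 10 nM (adjusted p = 3.48e-05) and 0.69 between the doses (adjusted p = 0.00837, and 0.0514 without 1 nM replicate 3). Other Mrc2 probes gave 0.33 and 0.01 at 1 nM and 0.92 and 0.64 at 10 nM, so the rise at 1 nM was not seen on all of them. Vtn, which encodes vitronectin, an adhesive protein of plasma and matrix, was named after its values were seen. It was higher at 10 nM (log2 difference 3.59, SE 0.85), a call that ended without vehicle replicate 1. At 1 nM the Vtn difference was 2.06, and without vehicle replicate 3, which read -3.77 against -6.71 and -7.62, it was 3.19. Vtn was well above background on 2 of 3 vehicle arrays. It entered the test through the treated groups, so no p-value is given for it. Igf2r, a sorting receptor that also binds plasminogen and the urokinase receptor, fell by 0.43 at 1 nM and by 0.68 at 10 nM (log2, adjusted p = 0.00345 and 0.000242), with a sign change at 1 nM under median scaling to 0.06. Eno1, an enolase also found as a plasminogen receptor, fell by 0.47 and 0.34 (adjusted p = 0.00493 and 0.0179). Eno1 has near-identical copies in the genome and is uncertain, its call at 10 nM ended without vehicle replicate 1 or 10 nM replicate 1 or 3 (adjusted p 0.0502 to 0.0632), and median scaling turned it to 0.02 and 0.19.

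Of the coagulation factors and their processing genes 17 of 20 were measured, with 2 higher and 4 lower at 1 nM and 2 higher and 5 lower at 10 nM. F13a1, the catalytic chain of the factor that crosslinks fibrin, was 5.91-fold higher at 1 nM (log2 difference 2.56, SE 0.28) and 7.64-fold at 10 nM (2.93). It was above background on 2 of 3 vehicle arrays. With normexp and the 75th percentile its log2 differences were 1.61 at 1 nM and 1.9 at 10 nM, so the fold depends on the background correction. Kng1, which encodes kininogen, was 11.4-fold (3.51, SE 0.11) and 14.2-fold (3.83) higher with n = 2 in vehicle. Both genes entered the test through the treated groups, so no p-value is given for them. Kng1 has a close relative in the mouse genome and its other probe was near background, so its identity is uncertain.

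Genes that process clotting factors were among those that fell. Ggcx, the vitamin K-dependent carboxylase, fell by 0.68 at 1 nM and by 0.83 at 10 nM (log2, adjusted p = 0.000291 and 7.11e-05). With normexp and quantile normalization Ggcx differed by -0.26 and -0.33 (adjusted p = 0.37 and 0.244), and the submitters' values gave the same sizes. Vkorc1, which recycles vitamin K, fell by 0.59 and 0.73 (adjusted p = 0.000281 and 6.21e-05), with -0.10 and -0.21 under median scaling, where neither passed. The cargo receptor pair for factors V and VIII fell less on the brightest probes. The other Lman1 probe, A_52_P10781, gave -0.72 at 1 nM and -0.87 at 10 nM, so for Lman1 this depends on the probe. On its brightest probe Lman1 fell by 0.51 and 0.46 (adjusted p = 0.00306 and 0.00385, with a sign change to 0.07 at 10 nM under median scaling). Mcfd2 fell by 0.27 and 0.31 (adjusted p = 0.0259 and 0.0105), with a sign change to 0.22 at both doses under median scaling, and its call at 1 nM ended without vehicle replicate 1 or any one 1 nM array (adjusted p 0.0597 to 0.0799).

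Vwf, which encodes von Willebrand factor, fell at 10 nM by 0.98 (log2, adjusted p = 0.0242, and 0.064 and 0.0837 without 10 nM replicate 1 and 3). Its difference was -0.15 with normexp and quantile normalization (adjusted p = 0.622) and -0.14 in the submitters' values. Vwf and Mcfd2 were named after their values were seen. F2, which encodes prothrombin, was lower at 10 nM than at 1 nM by -0.40 (adjusted p = 0.034), a call that ended with the replicate block and without any of 6 arrays (vehicle replicate 1, each 1 nM replicate, 10 nM replicates 1 and 3, adjusted p 0.0616 to 0.147). Against vehicle F2 differed by 0.20 and -0.19 (adjusted p = 0.1 and 0.103).

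Of the anticoagulant genes 6 of 9 were measured, with 1 higher (Serpina5) and 3 lower at each dose. Anxa5, which covers the phospholipid surface on which clotting complexes assemble, fell 2.31-fold at 1 nM (log2 difference -1.21, SE 0.07, adjusted p = 1.59e-05) and 2.25-fold at 10 nM (-1.17, adjusted p = 1.14e-05). Pros1, protein S, the cofactor of activated protein C and of the Tfpi protein, fell by 0.77 at 10 nM (adjusted p = 0.00157). At 1 nM its difference of -0.45 (adjusted p = 0.0236) lost its call without vehicle replicate 2 or 3 or any one 1 nM array (adjusted p 0.0542 to 0.0762) and became 0.04 under median scaling. Serpind1, heparin cofactor II, fell by 1.11 at 10 nM (adjusted p = 0.00808), and by 0.96 at 1 nM (adjusted p = 0.0196), where the call ended without vehicle replicate 1 or 1 nM replicate 1 or 3 (adjusted p 0.0524 to 0.0649). With normexp and quantile normalization Serpind1 differed by -0.06 at 1 nM and -0.13 at 10 nM (adjusted p = 0.9 and 0.758). Median scaling gave -0.47 and -0.58 (adjusted p = 0.333 and 0.207). With normexp and the scaling unchanged, both calls held, and the difference at 1 nM was -0.61 (adjusted p = 0.024). The calls at both doses thus depend on the normalization, while background correction alone made the fall at 1 nM smaller. Serpina5, the protein C inhibitor, was not well above background on either vehicle array with a usable spot (n = 2) and was at least 1.81-fold higher at 1 nM and at least 1.61-fold higher at 10 nM, bounds set by the dimmest probes above background. It entered the test through the treated groups, so no p-value is given for it. With the non-uniform vehicle spot kept, its log2 differences were 0.54 and 0.37 and neither passed the test.

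Of the thrombin receptors 3 of 4 were measured. F2r, which encodes PAR1, the main thrombin receptor, fell by 0.58 at 1 nM and by 0.61 at 10 nM (log2, SE 0.07, adjusted p = 0.000881 and 0.000521), and the doses differed by -0.02 (SE 0.07). Under median scaling the F2r differences were -0.09 and -0.08 (adjusted p = 0.865 and 0.874). F2rl2, which encodes PAR3, fell by 1.61 at 10 nM (SE 0.46, adjusted p = 0.0318), a call lost when any single array other than 10 nM replicate 1 was left out (adjusted p 0.0517 to 0.0823). It was well above background on 1 of 3 arrays at 10 nM, and its difference was -0.11 with normexp and quantile normalization (adjusted p = 0.758) and -0.10 in the submitters' values.

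**Figure D5:**
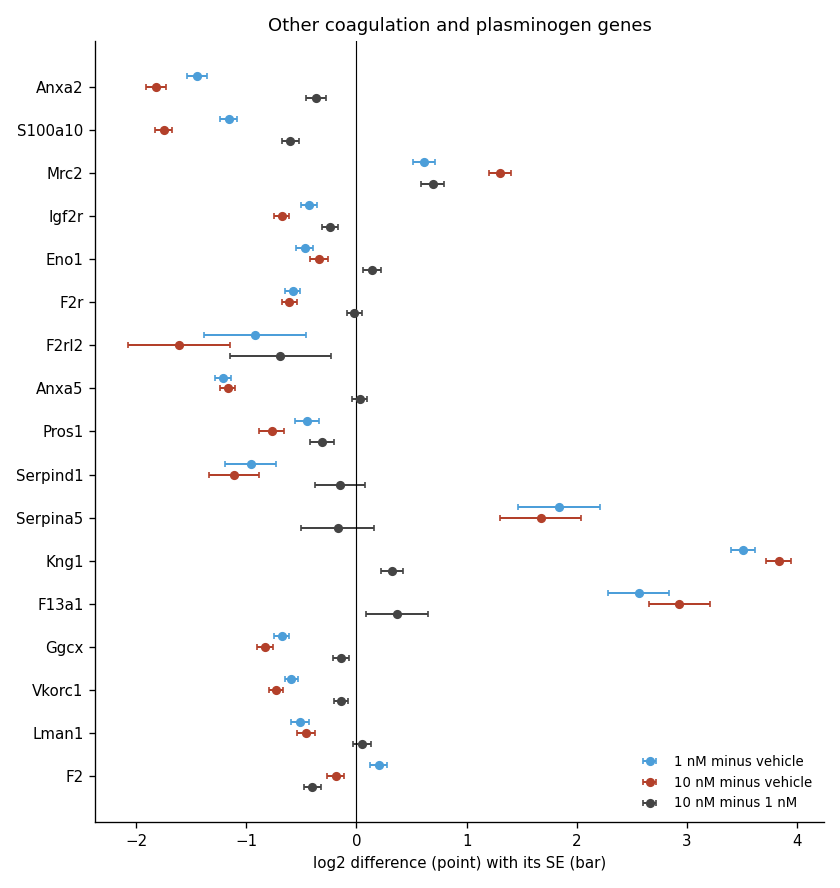
Log2 differences between groups (points) with their standard errors (bars) for 17 other coagulation and plasminogen genes, in the 3 comparisons by colour. Anxa2 lies at -1.45 and -1.82 against vehicle, Kng1 at 3.51 and 3.83, and Mrc2 is the one gene of the 17 that was called higher at 10 nM than at 1 nM.

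The genes whose level over the 9 arrays ran most like that of Thbd, by Pearson r, were Sh3bp5 (0.9988), Jade1 (0.9975), Gpr146 (0.9974), Stk10 (0.9973) and Mss51 (0.9972). All 5 were higher by dose, with log2 differences of 0.98 to 1.84 at 1 nM and 1.46 to 2.74 at 10 nM, less than those of Thbd. For F3 the closest were Pdgfc (0.998) and Nod1 (0.997), for Plat Lef1 (0.9963) and Vim (0.995), for Plau Ctsw (0.9956) and Cspg4 (0.9952), and for Plaur Itgb3 (0.9969) and Etv1 (0.9961). Itgb3, the integrin chain of the vitronectin receptor, differed from vehicle by -3.27 and -4.64. Procr had Arih1 (0.9766) and Ero1b (0.9761), Tfpi had Wdr75 (0.9468) and Gnpat (0.9413), and Serpine2, over 8 arrays, had Dio3 and Tmem14c (0.9645 each). These are descriptions over arrays that share 3 groups, so any gene with the same 3 steps scores high.

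Thrombomodulin, the protein C receptor and tissue factor pathway inhibitor are textbook products of endothelium, and F13a1 of platelets and macrophages, so markers of other cells were read beside them. The summed scaled signal of 8 endothelial markers was 3.88 to 6.04 in vehicle, 3.93 to 5.29 at 1 nM and 4.64 to 6.34 at 10 nM, ranges that overlap, and Emcn and Tie1 were not well above background in either treated group. The endothelial marker Tek, a receptor tyrosine kinase, went the same way as Thbd, with log2 differences of 2.73 at 1 nM and 2.78 at 10 nM (SE 0.12). It had n = 2 in vehicle, of which 1 was well above background. Tek entered the test through the treated groups, so no p-value is given for it. Kdr, which makes up most of that sum, differed by -0.19 and 0.01 (SE 0.22). The sum of 5 platelet and megakaryocyte markers was 1.77 to 2.04, 0.221 to 0.251 and 0.09 to 0.127, lower in treated cells. Gp1ba was not well above background in any group, and Gp9 and Pf4 in neither treated group. Itgb3, described above, is among the 5 and differed from vehicle by -3.27 and -4.64. The lower sum is therefore not read as a fall of platelet markers as a set. For 6 macrophage and leukocyte markers it was 21.2 to 25.6, 18.1 to 19.4 and 16.3 to 21.5. For 4 fibroblast markers it was 58.1 to 69.7, 53.9 to 59.4 and 50.2 to 58.8. The part of these lists in the results was not tested.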

How the data were processed

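The 9 RNA samples were read on 9 arrays with 44397 spots each, in 1 colour. The deposited scanner files hold intensity values (processed, mean and background signals) on a linear scale, and their other columns used here flag control spots and those saturated, non-uniform or well above background, per the file headers. Per the submitters' processing notes they were made with Feature Extraction 11.5.1.1, and limma was used. The series table deposited by the authors has log2 values for 30094 probes and served as an alternative.

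Processed signals were scaled to each array's 75th percentile and taken to log2. Control and non-uniform spots were left out and spots of a probe averaged, leaving 39429 probes. A probe was kept if well above background on all 3 arrays of a group (28342 probes, 71.9%), and the brightest kept probe stood for a gene (21995 genes, 20210 measured on every array). Gene names were taken from a RefSeq table of GRCm38.p6, for 15849 genes by accession and 1174 by symbol, and 4972 kept the file's name. Groups were compared with limma 3.58.1 in R 4.3.3 (lmFit, eBayes) in 1 fit of all arrays without a block, with Benjamini-Hochberg adjustment at 0.05. The fit was tested on simulated data. No pair of arrays held identical values.

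The 8 genes, the lists and the rule for naming were chosen with earlier results of these data known. The rule named every member, up to 6 called genes a list by smallest p, F2r, Anxa2 and S100a10, and the 5 genes most like Thbd and 2 most like each other member, and 1 gene it took is not reported here. Slide 1 held vehicle replicates 1 and 2, 1 nM replicate 1 and 10 nM replicate 1, slide 2 held 1 nM replicates 2 and 3, 10 nM replicate 2 and vehicle replicate 3, and slide 3 held 10 nM replicate 3. Deviations from group means of same-numbered 1 nM and 10 nM arrays correlated at 0.484, 0.329 and 0.144, so those numbers were taken as pairs, from the data and not the labels. Those of vehicle (-0.42 to 0.0528) were not. Replicates 1 and 2 of the doses also shared a slide, while replicate 3 did not. Whether slide or a pairing of cultures lies behind these correlations was not tested. Alternatives covered scaling, background correction, the submitters' values, the probe filter and choice, the spread model, the groups fitted, replicate and slide blocks, each slide alone, each array left out and a threshold of 0.01. Added after seeing the data were median scaling also without vehicle replicate 3 and keeping non-uniform spots.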

Additional observations from a re-analysis of the deposited data

How the results depend on the processing

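Counts below are in the order 1 nM against vehicle, 10 nM against vehicle, 10 nM against 1 nM. Over all genes 5188, 6622 and 837 were called, and 17, 20 and 4 of the 37 other coagulation and plasminogen genes. Median scaling gave 1513, 2532 and 58 genes, of which 62.1%, 67.1% and 69% were higher (49.9%, 51.2% and 41.9% with the 75th percentile), and 6, 9 and 0 of the 37. Added to it, leaving out vehicle replicate 3 gave 3636, 5452 and 575 genes and 2 of the 37 between the doses. Slide 1 alone, where each dose has a single array assumed to vary like the vehicle pair, gave 1584, 2574 and 5 genes and 7, 9 and 0 of the 37 (4 of the 37 between the doses with an unadjusted p under 0.05). Slide 2 alone, whose single vehicle array is replicate 3 and is assumed to vary like the rest, gave 10449 and 10019 genes (26.6% and 27.9% higher) and, between the doses, 0 genes and 0 of the 37 by limma (3380 genes and 11 of the 37 with an unadjusted p under 0.05). A threshold of 0.01 gave 3092, 4339 and 370 genes, and 2 of the 37 between the doses. Between the doses, genes called numbered 518 with normexp and quantile normalization, 368 in the submitters' values, 535 without the filter, 1351 with the doses alone, 459 with the replicate block and 355 with the slide block, which left 1 of the 37. The replicate block is a pairing for the doses alone, and there it ended the calls of Plau and F2 among the genes named. Leaving out 1 array at a time gave 3506 (without 1 nM replicate 3) to 5570 (without vehicle replicate 3), 5104 (without 10 nM replicate 3) to 7155 (without vehicle replicate 3) and 366 (without 1 nM replicate 3) to 1267 (without vehicle replicate 3) genes, and 14 to 18, 17 to 20 and 1 to 5 of the 37. Signs turned under median scaling for Pros1 (0.04), Igf2r (0.06), Eno1 (0.02) and Mcfd2 (0.22) at 1 nM and for Lman1 (0.07), Eno1 (0.19) and Mcfd2 (0.22) at 10 nM, and for Serpine2 (-0.28) at 10 nM with non-uniform spots kept. Of 580 alternative values for the 8 genes, 75 moved by more than the spread between replicates and 1 reversed. Of 1493 for the other genes named, 154 lost and 17 gained a call and 7 reversed. Except where this text gives one, the cause was not tested. Dim genes such as Serpine2, F2rl2, Vtn and Serpina5 are limited by their signal over background.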
